A study of Homo sapiens with 4 samples.

Results

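The 10 genes SOX2, SOX4, SOX5, SOX6, SOX8, SOX9, SOX10, SOX11, SOX12 and SOX13 encode transcription factors of the SOX family and were followed in arrays labelled as PC3 cells with and without added PDEF. They were chosen by name, with earlier results of these data known. Each had a probe set that the platform annotation gives to that gene alone, so that all 10 were measured, of 18417 genes in all. The control arrays, VC-PC3, are labelled PC3-SCR and, by the labels, hold PC3 cells with the empty pBABE vector. The PDEF-PC3 arrays are labelled as PC3 cells made to overexpress PDEF, a label that signals of CTNNA1 and STAT3, given below, go against. PC3 is an established line from a bone metastasis of prostate cancer, and no other agent or allele is named for either group. There were 2 Affymetrix human gene arrays in each group, and total RNA of cultured cells was hybridized. The sources used here do not say whether the cells of a group were 1 clone or a pool, nor whether separate cultures were arrayed. The p-values therefore cover the spread between these arrays alone, which may be technical, and with 2 arrays a group the smallest two-sided p of an exact permutation test is 0.333. Values are deposited signals on a log2 scale.

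SOX proteins bind DNA through an HMG box, a domain that bends the double helix at short A- and T-rich sites, and they act with partner factors such as POU and PAX proteins. Subgroups share parts of the protein outside this box. SOX2 (SOXB1) keeps stem and neural progenitor cells undifferentiated, SOX4, SOX11 and SOX12 (SOXC) act in neuronal and mesenchymal progenitors, SOX5, SOX6 and SOX13 (SOXD) lack an activation domain of their own and modulate other SOX factors, and SOX8, SOX9 and SOX10 (SOXE) act in cartilage, gonads, neural crest and glia. In the prostate, SOX9 is known from basal and developing epithelium, SOX4 is known to be raised in many carcinomas, and SOX2 is known from basal cells and from neuroendocrine tumours.

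The identity of the arrays bears on every comparison below. SPDEF, the gene of PDEF, gave VC-PC3 signals of 5.99 and 6.06 and PDEF-PC3 signals of 6.85 and 6.73. CTNNA1 and STAT3, whose loci other work has found lost from both chromosomes in PC3 cells, rose from 4.77 and 4.07 to 9.76 and 9.86 and from 4.51 and 4.70 to 9.06 and 9.05. The PDEF-PC3 arrays thus go against their label as PC3 cells at these genes, and both of them do, so that no comparison without them can be made. Over all genes 26.7% rose and 24.0% fell (limma, Benjamini-Hochberg adjusted p under 0.05), the background against which the marker counts that follow stand. Of 11 neuronal markers 4 rose and 1 fell, with a median log2 fold change of -0.055. Their summed signal on the linear scale was 372 to 375 in VC-PC3 and 2408 to 2670 in PDEF-PC3. That sum mainly follows NEFM and not the list as a whole. NEFM had log2 signals of 4.80 and 5.24 in VC-PC3 and 10.69 and 10.89 in PDEF-PC3. NEFL rose from 7.08 and 6.96 to 8.92 and 8.95, and INA from 4.12 and 4.02 to 6.50 and 6.67. Of the 11 markers, 3 were called and rose at least 2-fold and 0 fell 2-fold, where 8.67% and 6.07% of all genes did. In no array were 8 of the 11 markers above the highest olfactory receptor gene. The level of that gene is used here as a gauge of background. It was 5.94 and 6.01 in the control arrays but lower, at 5.65 and 5.75, in the PDEF arrays. The gauge is a high one, since the median olfactory receptor gene lay at 3.39 and 3.34 in the control arrays and 3.27 and 3.24 in the PDEF arrays. Whether these cells transcribe any olfactory receptor gene was not tested. Of 8 kidney lineage markers 3 rose and 2 fell (summed signal 568 to 575 and 744 to 791), 2 of the rises and 0 of the falls at least 2-fold. Of 6 prostate luminal markers SPDEF rose and KRT8 fell (1745 to 1799 and 1367 to 1402), with KLK2 and KLK3 not above the gauge in any array, and of 3 basal markers KRT15 fell (146 in both VC-PC3 arrays, 110 to 111 in PDEF-PC3), with KRT5 and KRT15 not above the gauge in any array. The part of these markers in the SOX results was not tested. In a cell population, fewer cells of a type and less RNA per cell cannot be told apart.

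In the PDEF-PC3 arrays SOX4, SOX2 and SOX6 were higher, and SOX13 and SOX9 were lower, than in the control arrays. The other 5 genes, SOX5, SOX8, SOX10, SOX11 and SOX12, did not pass the test (limma, Benjamini-Hochberg adjusted p under 0.05 over all genes). Of all genes, 50.7% were called by the same rule, 26.7% as higher and 24.0% as lower, so that the 5 of 10 called here lie at the share of the whole table. SOX4 alone among the 10 rose at least 2-fold, which 8.67% of all genes did, and none fell 2-fold, which 6.07% of all genes did. The median log2 fold change of the 10 genes was -0.013 and that of all genes was -0.05, and the median size of the change without its sign was 0.33 and 0.30. For 8 of the 10 genes the 2 groups of arrays did not overlap, against 74.7% of all genes. Without PDEF-PC3 replicate 1, when 30.8% of all genes were called, none of the 3 higher genes passed the adjusted threshold in limma, while all 3 kept an unadjusted p under 0.05. The largest gap between arrays of the same group was 0.32, for SOX4 in VC-PC3.

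**Figure D1:**
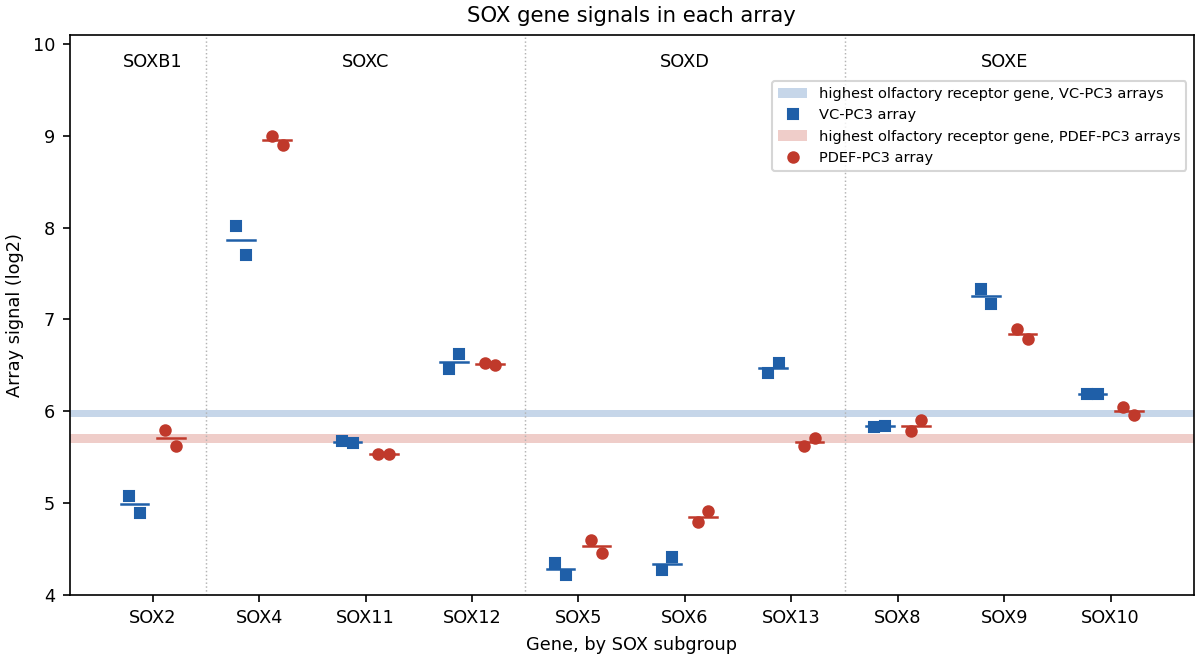
Log2 signal (vertical axis) of the 10 SOX genes (horizontal axis, by subgroup) in each VC-PC3 array (squares) and PDEF-PC3 array (circles), with the group mean as a line and, as shaded bands, the highest olfactory receptor gene of the arrays of each group. SOX4 lies at 9.00 and 8.90 in PDEF-PC3 against 8.02 and 7.70 in VC-PC3, and SOX13 lies at 6.42 and 6.52 in VC-PC3 but within or under the band of its group in PDEF-PC3.

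Of the 5 genes called, 4 have a promoter entry in the RefSeq table (assembly GRCh38.p14), and the 250 bases before their outermost start are printed because these are the members whose signal moved. ETS proteins bind around a core of GGAA or GGAT, and PDEF is known to favour GGAT. Capitals mark GGAT, and ACAAT and ACAAAG, the letters at the centre of known SOX sites, each searched on both strands. The windows are chr3:181711675-181711924 (plus strand) for SOX2, chr6:21593501-21593750 (plus strand) for SOX4, chr11:16738478-16738727 (minus strand) for SOX6, which has 5 listed starts, and chr1:204072865-204073114 (plus strand) for SOX13.
SOX2: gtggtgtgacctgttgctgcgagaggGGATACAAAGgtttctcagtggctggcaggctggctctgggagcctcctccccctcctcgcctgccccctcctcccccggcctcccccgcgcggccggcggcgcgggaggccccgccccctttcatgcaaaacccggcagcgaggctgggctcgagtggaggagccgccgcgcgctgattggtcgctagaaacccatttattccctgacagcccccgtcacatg
SOX4: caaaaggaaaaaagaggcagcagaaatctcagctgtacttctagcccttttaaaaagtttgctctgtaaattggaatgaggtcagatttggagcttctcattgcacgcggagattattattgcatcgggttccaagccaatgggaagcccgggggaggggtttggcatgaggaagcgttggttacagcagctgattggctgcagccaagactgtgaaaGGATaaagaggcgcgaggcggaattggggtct
SOX6: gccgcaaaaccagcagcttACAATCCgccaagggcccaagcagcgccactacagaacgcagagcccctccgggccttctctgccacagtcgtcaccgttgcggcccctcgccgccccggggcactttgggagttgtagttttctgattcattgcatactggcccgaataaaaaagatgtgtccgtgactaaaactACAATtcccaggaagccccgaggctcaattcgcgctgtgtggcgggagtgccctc
SOX13: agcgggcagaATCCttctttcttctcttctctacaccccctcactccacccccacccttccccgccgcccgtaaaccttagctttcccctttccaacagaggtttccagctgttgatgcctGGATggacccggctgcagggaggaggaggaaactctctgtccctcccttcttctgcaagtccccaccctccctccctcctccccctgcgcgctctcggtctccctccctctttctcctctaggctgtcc
GGAT occurred once in the windows of SOX2, SOX4 and SOX6 and at 2 places in that of SOX13, and 70.7% of all 35116 promoter windows of this length hold it. In SOX2 it adjoins the ACAAAG, a motif of 13.7% of all windows. In SOX6 the GGAT on the other strand overlaps the first of 2 ACAAT, a motif of 24.6% of all windows. The longer forms CCGGAT, which contains GGAT, and CCGGAA were in none of the 4 windows and in 5.85% and 14.5% of all windows. These matches describe letters and not sites in use. SOX13, which fell, holds GGAT as the 3 genes that rose do. SOX5 and SOX12, which were not called, also have entries. The window of SOX5, which is not at its outermost start, holds GGAT too, and that of SOX12 does not. For SOX8, SOX9, SOX10 and SOX11 there is no entry. Plain GGAA was not searched for.

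SOX2, a factor that with POU proteins maintains pluripotent and neural progenitor cells, gave VC-PC3 signals of 5.08 and 4.89 and PDEF-PC3 signals of 5.80 and 5.62. Both PDEF-PC3 arrays were higher than both VC-PC3 arrays, but only PDEF-PC3 replicate 1 was above the gauge of background. The gauge of that array was 5.65, and its SOX2 signal of 5.80 lay under the gauge of the VC-PC3 arrays, 5.94 and 6.01. SOX2 rose by 0.73 log2 units (standard error 0.11, 95% confidence interval 0.46 to 0.99, adjusted p = 0.00178 from limma), or 1.65-fold. The size of this difference is not exact because the VC-PC3 signals lay under the gauge. Without PDEF-PC3 replicate 1 the log2 fold change was 0.64 and the adjusted p was 0.0613. SOX2 lies within the long noncoding gene SOX2-OT, whose signal is not analysed here.

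Of the SOXC genes, SOX4 changed most. SOX4, a factor of progenitor cells that is often raised in carcinomas, gave VC-PC3 signals of 8.02 and 7.70 and PDEF-PC3 signals of 9.00 and 8.90. All 4 arrays were above the gauge and the groups were separated by more than the gap within either of them. The log2 fold change was 1.09 (standard error 0.12, 95% confidence interval 0.79 to 1.39, adjusted p = 0.000516 from limma), or 2.13-fold in favour of PDEF-PC3. Without PDEF-PC3 replicate 1 it was 1.04, with an adjusted p of 0.0536. SOX11, which acts with SOX4 in developing neurons, had 5.68 and 5.65 in VC-PC3 and 5.53 in both PDEF-PC3 arrays, and no array was above the gauge. Its log2 fold change of -0.14 had a 95% confidence interval of -0.33 to 0.058 (adjusted p = 0.207). SOX12, the broadly expressed member of the subgroup, had 6.46 and 6.62 in VC-PC3 and 6.52 and 6.50 in PDEF-PC3, above the gauge in all arrays. The groups overlapped, and the log2 fold change was -0.03 with a 95% confidence interval of -0.25 to 0.19 (adjusted p = 0.811). The interval of SOX4 thus lay above those of SOX11 and SOX12, though the difference between the genes was not tested.

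The SOXD genes went different ways. SOX13, which encodes a factor known from the nervous system, arteries and T cells, gave VC-PC3 signals of 6.42 and 6.52 and PDEF-PC3 signals of 5.62 and 5.71. The VC-PC3 arrays were above the gauge and the PDEF-PC3 arrays were not, so that the size of the fall is not exact. SOX13 fell by 0.81 log2 units (standard error 0.088, 95% confidence interval -1.02 to -0.59, adjusted p = 0.000436 from limma), or 1.75-fold. It is the only one of the 10 genes that passed the test whichever array was left out (adjusted p from 0.0203 to 0.0297). SOX6, a partner of SOX9 in cartilage and a factor of red cell and muscle development, had 4.27 and 4.41 in VC-PC3 and 4.79 and 4.91 in PDEF-PC3. Both PDEF-PC3 arrays were higher, but all 4 signals lay under the gauge. The rise of 0.51 (standard error 0.095, adjusted p = 0.00469 from limma) may therefore lie within background. It passed the test only without VC-PC3 replicate 2 among the fits with 1 array left out, and the others gave an adjusted p of 0.0615 without VC-PC3 replicate 1, 0.0546 or 0.0804 without PDEF-PC3 replicate 1 or 2. SOX5, the close relative of SOX6 that acts with it in cartilage, had 4.35 and 4.22 in VC-PC3 and 4.60 and 4.46 in PDEF-PC3, also under the gauge throughout. Its log2 fold change of 0.25 had an adjusted p of 0.0760, and of 0.0415 after quantile normalization.

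Of the SOXE genes, SOX9 was lower in PDEF-PC3. SOX9, a factor that directs cartilage and testis formation and marks epithelial progenitors, gave VC-PC3 signals of 7.33 and 7.17 and PDEF-PC3 signals of 6.89 and 6.79. All 4 arrays were above the gauge and the groups did not overlap. SOX9 fell by 0.41 log2 units (standard error 0.096, 95% confidence interval -0.64 to -0.18, adjusted p = 0.0122 from limma), or 1.33-fold. The call was lost without VC-PC3 replicate 1 (adjusted p = 0.0872) and without PDEF-PC3 replicate 1 (adjusted p = 0.0843) or 2 (adjusted p = 0.127). SOX10, a factor of neural crest, melanocytes and glia, had 6.19 in both VC-PC3 arrays and 6.05 and 5.96 in PDEF-PC3, slightly above the gauge in all of them. Its log2 fold change was -0.19 (95% confidence interval -0.39 to 0.017, adjusted p = 0.112), and the adjusted p was 0.0369 after quantile normalization and 0.0404 after median centring. SOX8, which overlaps in function with SOX9 and SOX10, had 5.83 and 5.84 in VC-PC3 and 5.78 and 5.90 in PDEF-PC3. These signals overlapped, and the difference of 0.005 on the log2 scale had a 95% confidence interval of -0.20 to 0.21 (adjusted p = 0.968). SOX8 was above the gauge in the PDEF-PC3 arrays only because the gauge itself was lower there. SOX8 and SOX10 share their loci with LOC102723964 and POLR2F, which overlap them.

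**Figure D2:**
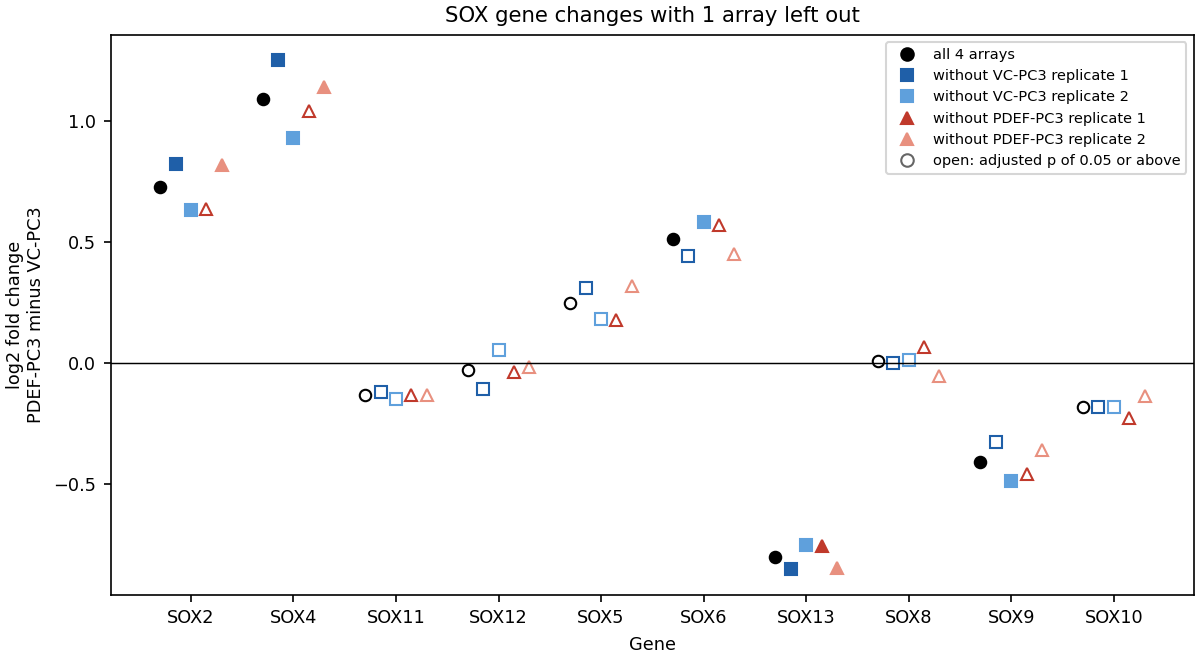
Log2 difference of PDEF-PC3 from VC-PC3 (vertical axis) of each of the 10 SOX genes (horizontal axis) with all 4 arrays (circles) and with 1 array left out (squares and triangles). Filled symbols have an adjusted p under 0.05, and SOX13 is the gene with filled symbols throughout, between -0.86 and -0.76 with 1 array left out.

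Among the 9 other SOX genes measured, 3 fell and 0 rose in limma, and 0 were higher at an unadjusted p under 0.05, where 24.0% of all genes fell and 26.7% rose by the adjusted threshold. SOX21, a SOXB2 factor that can counter SOX2 and related activators, gave VC-PC3 signals of 8.73 and 8.56 and PDEF-PC3 signals of 6.91 and 6.71, above the gauge in all arrays. It fell by 1.84 log2 units (standard error 0.11, adjusted p = 3.60e-05 in limma), more than any of the other SOX genes measured here changed. SOX7, a factor of blood vessels and endoderm, fell by 0.70 (adjusted p = 0.000726), and SOX30, a factor of sperm development whose signals lay under the gauge, fell by 0.69 (adjusted p = 0.00103). SOX1, SOX3, SOX14, SOX15, SOX17 and SOX18 did not pass the test, with log2 fold changes between -0.28 and 0.03. SOX1 and SOX3, the other SOXB1 genes beside SOX2, had values of -0.18 (adjusted p = 0.174) and -0.23 (adjusted p = 0.0783).

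**Figure D3:**
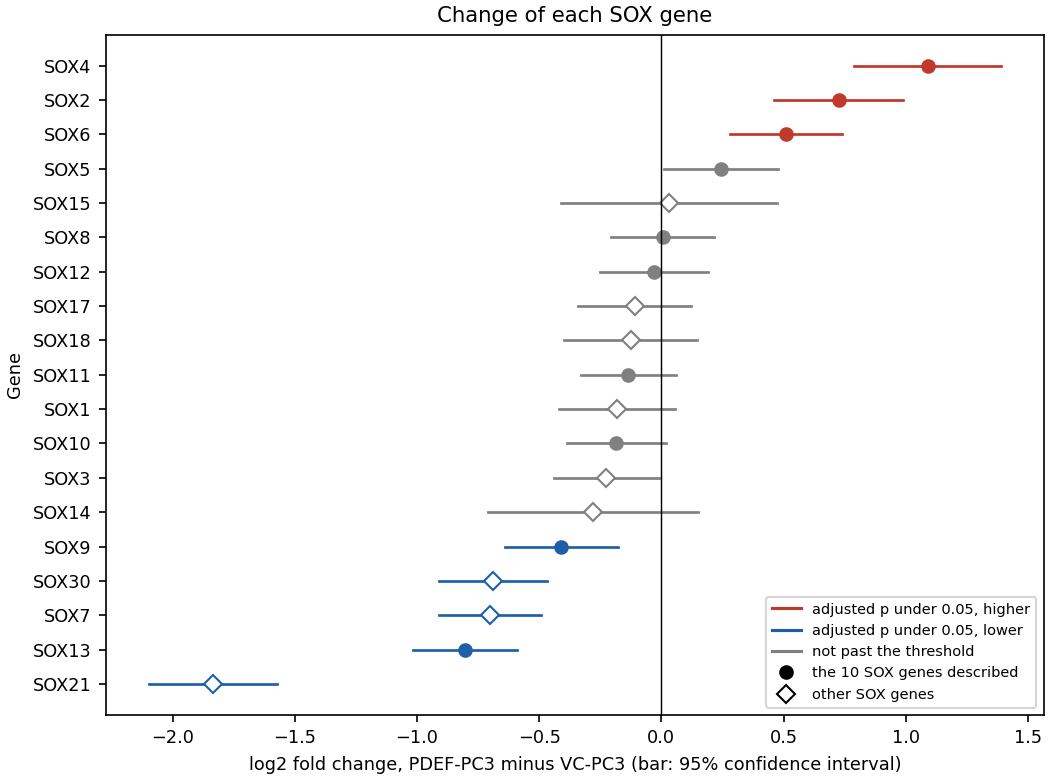
Log2 difference of PDEF-PC3 from VC-PC3 (horizontal axis, bars are 95% confidence intervals, 2 arrays per group) of the 19 SOX genes measured here (vertical axis), with the 10 genes described as filled circles and the others as open diamonds. SOX4 at 1.09 lies farthest to the higher side and SOX21 at -1.84 farthest to the lower side.

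Genes whose products act with SOX proteins or share the HMG box were called higher more often than lower, though the lists as sets were not tested. Their counts stand beside the 26.7% of all genes called higher, the 24.0% called lower and the median of -0.05 over all genes. Of 12 partner genes listed, 10 were measured, with 5 higher, 1 lower and 4 not past the threshold, with a median log2 fold change of 0.29. PAX3, which acts with SOX10 in the neural crest, gave VC-PC3 signals of 4.29 and 4.52 and PDEF-PC3 signals of 6.69 and 6.70, and its VC-PC3 signals were under the gauge. CHD7, a chromatin remodeller that binds SOX2, rose by 1.94 (standard error 0.091, adjusted p = 1.65e-05), and the acetyltransferase gene CREBBP rose by 0.87. POU3F4, a POU factor of the inner ear and brain whose signals lay under the gauge, fell by 0.30. Of 20 genes with an HMG box outside the SOX family, 17 were measured, with 8 higher, 1 lower and 8 not past the threshold, with a median of 0.26. SMARCE1, a subunit of the BAF chromatin remodelling complex, rose by 1.37 (standard error 0.11, adjusted p = 0.0001), and LEF1 and TCF7L2, which carry Wnt signals to DNA, rose by 1.29 and 1.11. HBP1, a repressor of the cell cycle, fell by 0.69. With the replicate number as a block, 5 HMG-box genes were higher, and 4355 of all genes were. The main fit, with 8 HMG-box genes higher, called 4918 of all genes higher. POU3F4 lost its call with any 1 array left out.

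Genes known from other systems as targets of these factors moved both ways, and each count is to be read against the 26.7% and 24.0% of all genes called higher and lower. Of 11 listed for SOX4 or SOX11, 10 were measured, with 4 higher, 3 lower and 3 not past the threshold, with a median log2 fold change of 0.063. The Wnt receptor gene FZD5 rose by 1.00, DICER1, the nuclease that matures microRNAs, rose by 0.89, and EZH2, the methyltransferase of Polycomb, rose by 0.59. The matrix gene TNC gave VC-PC3 signals of 9.52 and 9.40 and PDEF-PC3 signals of 6.34 and 6.46, a fall by 3.06 (standard error 0.093, adjusted p = 3.99e-06). EGFR, a growth factor receptor gene, fell by 2.14, and TEAD2, a partner of YAP1, fell by 0.91, with an adjusted p of 0.0657 or 0.0750 without PDEF-PC3 replicate 1 or 2. SOX4 itself was higher in the same arrays, so members of its list moved with it and against it.

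Of 13 cartilage genes that SOX9 activates with SOX5 and SOX6, all were measured, with 0 higher in limma (1 at an unadjusted p under 0.05), 3 lower (24.0% of all genes were) and 10 not past the threshold, with a median of -0.08. MATN3 fell by 0.69, HAPLN1 by 0.30 and COL2A1 by 0.25, and all 3 lay under the gauge in every array, as did 10 of the 13 genes. HAPLN1 and COL2A1 lost their calls with any 1 array left out, and MATN3 without VC-PC3 replicate 2 (adjusted p = 0.0572). Of 18 neural crest, melanocyte and glial genes linked to SOX10 and SOX8, 12 were measured, with 1 higher (26.7% of all genes), 3 lower (24.0%) and 8 not past the threshold, with a median of -0.028. TFAP2A, a factor of neural crest and epithelium, gave VC-PC3 signals of 8.94 and 8.98 and PDEF-PC3 signals of 7.47 and 7.37 and fell by 1.54 (adjusted p = 2.87e-05). The endothelin receptor gene EDNRB rose by 0.96, the myelin gene MBP fell by 1.11 and the tyrosinase gene TYR fell by 0.42. All 3 lay under the gauge in every array. With 1 array left out, the change of TYR ranged from -0.585 to -0.245, and its call was not kept throughout. TYR has 2 probe sets, and their mean gave -0.23 (adjusted p = 0.138 in limma). Quantile normalization gave -0.33 for TYR (adjusted p = 0.0699 in limma).

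Of 13 pluripotency and progenitor genes that are known beside SOX2, 12 were measured, with 2 higher (26.7% of all genes), 2 lower (24.0%) and 8 not past the threshold, with a median of -0.12. LIN28B, an RNA-binding protein gene of embryonic cells, had signals of 3.79 and 3.08 in VC-PC3, under the gauge, and of 8.43 and 8.69 in PDEF-PC3. KLF4, a reprogramming factor gene, rose by 0.90 from signals under the gauge, with an adjusted p of 0.0636 without PDEF-PC3 replicate 2. NES, the intermediate filament gene of neural progenitors, fell by 1.09 to signals under the gauge. SALL4, a zinc finger gene of embryonic stem cells, fell by 0.55, and its adjusted p was 0.0580, 0.0706 and 0.0510 without VC-PC3 replicate 1, PDEF-PC3 replicate 1 and PDEF-PC3 replicate 2. CTNNA1, STAT3 and some of the neuronal and kidney lineage markers moved between the same arrays as these lists and the SOX genes. Those markers moved both ways, as did all genes (26.7% higher, 24.0% lower). Between these arrays, an effect of PDEF within PC3 cells and a difference between the cells arrayed cannot be told apart.

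**Figure D4:**
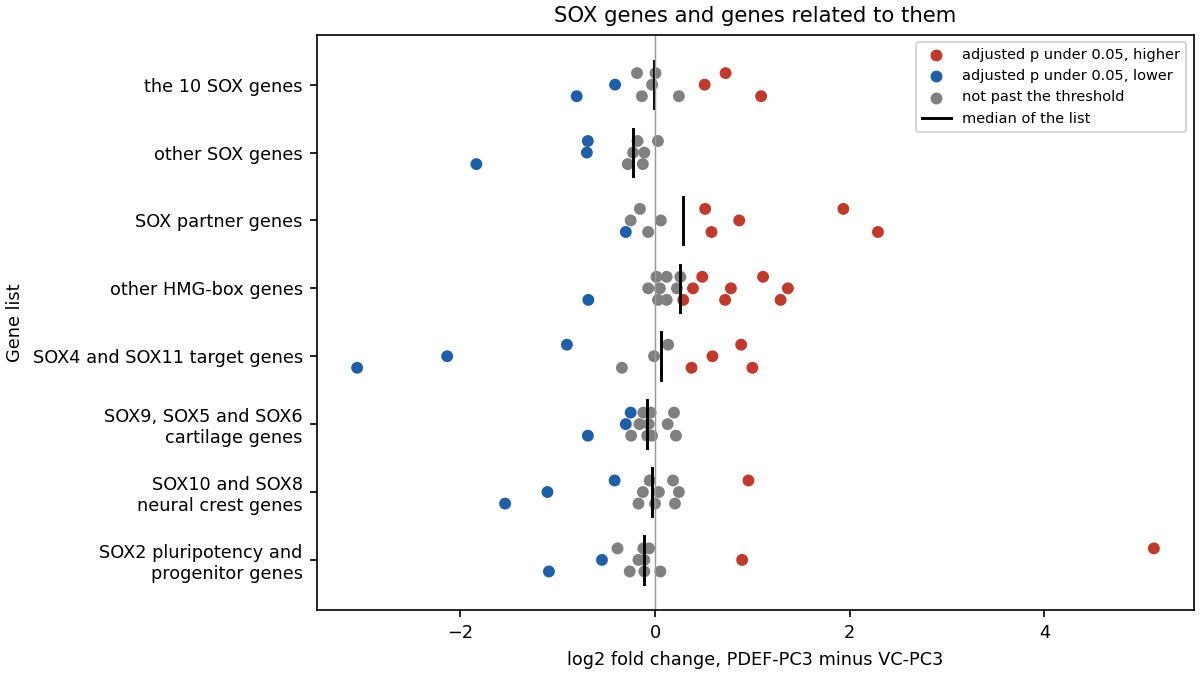
Log2 difference of PDEF-PC3 from VC-PC3 (horizontal axis) of each gene measured in the SOX lists and related lists (vertical axis), 1 point per gene, with the median of each list as a black line. The 10 SOX genes lie between -0.81 and 1.09, while single genes of the related lists lie as far as -3.06 (TNC) and 5.13 (LIN28B).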

How the data were processed

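Affymetrix HuGene-1.0-st arrays labelled as PC3 cells (2 arrays of VC-PC3 with the empty vector and 2 of PDEF-PC3) were compared. The authors deposited signals of 33297 probe sets, on a log2 scale as judged from their range, made with Transcriptome Analysis Console per the labels. No version, background correction or normalization is named there or in the methods. Array medians were 5.41 to 5.46 and values were used as deposited. The number of arrays limits the precision.

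Probe sets that the platform annotation maps to 1 symbol (19460) were kept, symbols were updated through assembly GRCh38.p14, and the probe set with the highest mean stood for a gene. All 10 SOX genes had a single such probe set. limma 3.58.1 (lmFit, eBayes, two-sided, R 4.3.3) was fitted to 18417 genes without a filter on low signals and tested on simulated data, with Benjamini-Hochberg adjustment over all genes. Named beside the 10 genes are up to 3 called rises and 3 called falls of each related list. The SOX genes and lists were chosen with earlier results of these data known, and the gene lists were written from general knowledge. Alternatives were quantile normalization, median centring, genes above the median level, the mean of probe sets, a variance trend with robust priors, the replicate number as a block and leaving out each array. Promoters are from RefSeq, which held 6 of the 10 genes.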

Additional observations from a re-analysis of the deposited data

How the results depend on the processing

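With 1 array left out, log2 fold changes ranged from 0.63 to 0.82 for SOX2, 0.93 to 1.25 for SOX4, 0.44 to 0.58 for SOX6, -0.49 to -0.33 for SOX9 and -0.86 to -0.76 for SOX13, and from -0.055 to 0.065 for SOX8 and -0.11 to 0.05 for SOX12, whose signs changed. These fits called 0 to 3 of the 10 SOX genes higher and 1 to 2 lower, and over all genes 3010 to 3635 higher and 2326 to 2856 lower. They also called 5 HMG-box genes and 1 to 2 pluripotency and progenitor genes higher, and 0 partner genes, 0 to 1 cartilage genes and 1 to 2 pluripotency and progenitor genes lower. Quantile normalization gave 0.30 for SOX5 and -0.26 for SOX10, both called, -0.049 for SOX8, 3 lower partner genes and 2 higher neural crest genes. Median centring gave -0.26 for SOX10, called, -0.065 for SOX8 and 4 lower pluripotency and progenitor genes. The variance trend gave 4 lower pluripotency and progenitor genes and 0 lower partner genes. Restricting the fit to genes above the median level, which removed 7 of the 10 SOX genes, left 1 of them higher (SOX4) and 1 lower (SOX9), 0 neural crest and 0 pluripotency and progenitor genes higher, and 1 of each of these lists, 0 partner genes and 0 cartilage genes lower. Arrays with the same replicate number did not deviate together (correlation of deviations 0.022 across genes, which are not independent). Whether the number pairs the arrays is not stated in the sources used here, and 1 correlation cannot settle it. With the replicate number as a block, 5 HMG-box genes were higher and 1 cartilage gene was lower, HAPLN1, COL2A1 and TYR lost their calls, and none of the 10 SOX genes changed its call. Of 18417 genes, quantile normalization called 4667 higher and 4736 lower, median centring 4484 and 5589, and the variance trend 5178 and 4484. The replicate block called 4355 and 3619, and the main fit 4918 and 4419. The fit above the median level called 3928 and 3009, a larger share of the fewer genes it tested. The list counts of each setting are to be read against these. The causes of the differences between settings were not tested. Signals under or near the gauge of background limit the size of the changes of SOX2, SOX5, SOX6, SOX11 and SOX13.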

Other observations

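The protein-coding genes tested that lie nearest to each of the 10 SOX genes on either side, in the order of assembly GRCh38.p14, were looked up after the other values were known. Of these 20 neighbours, 5 rose and 4 fell at an adjusted p under 0.05 in limma, and 11 were not called, which lies near the 26.7% of all genes called higher and 24.0% called lower. BCAT1, an enzyme gene of branched-chain amino acid metabolism beside SOX5, gave VC-PC3 signals of 4.42 and 4.70 and PDEF-PC3 signals of 8.04 and 8.24, while SOX5 differed by 0.25. ETNK1, on the other side of SOX5, rose by 0.295 (adjusted p = 0.0287). Beside SOX6, which rose by 0.51, C11orf58 rose by 0.485 (adjusted p = 0.00577) and INSC differed by -0.085 (adjusted p = 0.508). LMF1, beside SOX8, fell by 0.33 (adjusted p = 0.0340), while SOX8 differed by 0.005. CDKAL1, beside SOX4, had 8.29 and 8.38 in VC-PC3 and 8.25 and 8.33 in PDEF-PC3 (adjusted p = 0.698), and PRL, on its other side, fell by 0.34 at signals of background. SLC39A11, a zinc transporter gene beside SOX9, fell by 0.84 (adjusted p = 0.000257), while KCNJ2, on the other side of SOX9, differed by 0.045 (adjusted p = 0.733). Beside SOX13, the splicing gene SNRPE rose by 0.61 (adjusted p = 0.00143) and the kinase gene ETNK2 fell by 0.35 (adjusted p = 0.0315), while SOX13 fell by 0.81. DNAJC19, beside SOX2, rose by 0.40 (adjusted p = 0.0477), and ATP11B, on its other side, differed by -0.17 (adjusted p = 0.124).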
